A study of Mus musculus with 6 samples.

Results

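The 9 genes described here encode receptors, a surface glycoprotein and transcription factors that mark or maintain blood progenitors and leukaemia stem cells: Kit, Flt3, Cd34, Myb, Sox4, Zeb2, Gfi1, Mecom and Eya1. They were chosen by symbol from the 35869 genes listed in each library, and all 9 were present in the lists. The sequenced material was polyadenylated RNA of mouse acute myeloid leukaemia cells transformed by retroviral MLL-AF9, a fusion oncoprotein of human leukaemias. All cells, controls included, carried floxed Chaf1b alleles and CreERT2, a Cre recombinase that an oestrogen receptor ligand brings into the nucleus, and all were grown with 100 ng/mL SCF, 50 ng/mL IL6 and 20 ng/mL IL3. For the 3 KO libraries β-estradiol was added, which deletes Chaf1b, a subunit of the histone chaperone CAF-1. For the 3 WT libraries the ethanol vehicle was added, and RNA was taken 48 hours after induction. The ligand and the deletion therefore cannot be told apart. The design text speaks of clones, but no label ties a replicate to a clone or culture of its own, so p-values reflect the spread between these libraries, which may be technical.

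Kit and Flt3 are receptor tyrosine kinases of early blood cells, and SCF, which was in the medium, is the ligand of Kit. Cd34 is a surface sialomucin of progenitors that is lost as they mature. Myb drives proliferation and self-renewal of progenitors and is required by MLL-fusion leukaemias, Sox4 and Zeb2 are transcription factors of progenitors and of lineage choice, and Gfi1 is a zinc finger repressor that steers progenitors toward granulocytes. Mecom, which yields the EVI1 protein, and Eya1, a transcriptional cofactor and phosphatase, can support self-renewal of immature cells.

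TPM divides each gene's reads by transcript length and by the library total, so levels of different genes can be set side by side. The labels give about 120 M reads for each sample, but depth cannot be read from TPM, and the counting error of single values is unknown. Chaf1b fell from 49.4 ± 1.06 to 15.4 ± 1.97 TPM (SD, n = 3) between WT and KO. Its limma adjusted p was 0.0058, or 0.0698 without KO replicate 3. All 8 markers of leukaemic myeloid cells were above 0 in the 6 libraries: Ptprc lay between 25.6 and 29.7 TPM and Spi1 between 123.5 and 152.1 TPM, while Mpo and Cebpa were called higher in KO and Hoxa9 lower. Mpo, the myeloperoxidase gene, had the widest range, 1017.6 to 2311.4 TPM in KO and 19.4 to 127.6 TPM in WT. KO libraries listed 19767 to 20998 genes above 0, and WT libraries 18041 to 18070. KO replicate 1 and WT replicate 1 stood apart from their groups: over the tested genes, log2(TPM + 1) correlated at 0.998 (Pearson's r) within each pair of replicates 2 and 3, but 0.991 and 0.992 between KO replicate 1 and the other KO libraries and 0.984 and 0.986 between WT replicate 1 and the other WT libraries. The deposited column name of WT replicate 1 also carries a note of a replacement that names Qiagen, and the sources used here do not say what was replaced.

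Gfi1, Sox4 and Zeb2, all transcription factor genes, rose in KO by 1.42-fold to 1.47-fold, no member fell past the threshold, and Mecom and Eya1 were listed at 0 TPM in all 6 libraries. The other 4 tested members were Kit, Myb, Cd34 and Flt3, none of which passed the test. The test was limma on log2(TPM + 1) over the 13575 genes that reached 1 TPM in 3 or more libraries, with Benjamini-Hochberg adjustment and a threshold of 0.05. Of the 9 genes, 7 passed this filter, and each of the 7 was at 1 TPM or more in all 6 libraries, so none entered through 1 group. The 3 of 7 called higher stood against 12.9% of all tested genes. Among the 8136 genes that averaged 10 TPM or more, where 6 of the 7 lie, 8.47% were higher and 9.29% lower. The 0 of 7 called lower stood against 6.11% of all tested genes in limma, and at an unadjusted p under 0.05 it was 1, with 5 higher. At that unadjusted threshold, 5161 of the 13575 tested genes passed in either direction. The groups were fully separate for 6 of the 7, against 42.8% of all tested genes. Of the 6, 5 had KO above WT (23.4% of all tested genes) and 1, Cd34, had KO below WT (19.5%). All exact two-sided permutation p-values of these 6 genes were 0.1, the smallest that 3 against 3 libraries allow. The median log2 fold change of the 7 was 0.19, and that of all tested genes 0.0065. In bulk RNA, more cells of a kind and more RNA per cell cannot be told apart.

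**Figure D1:**
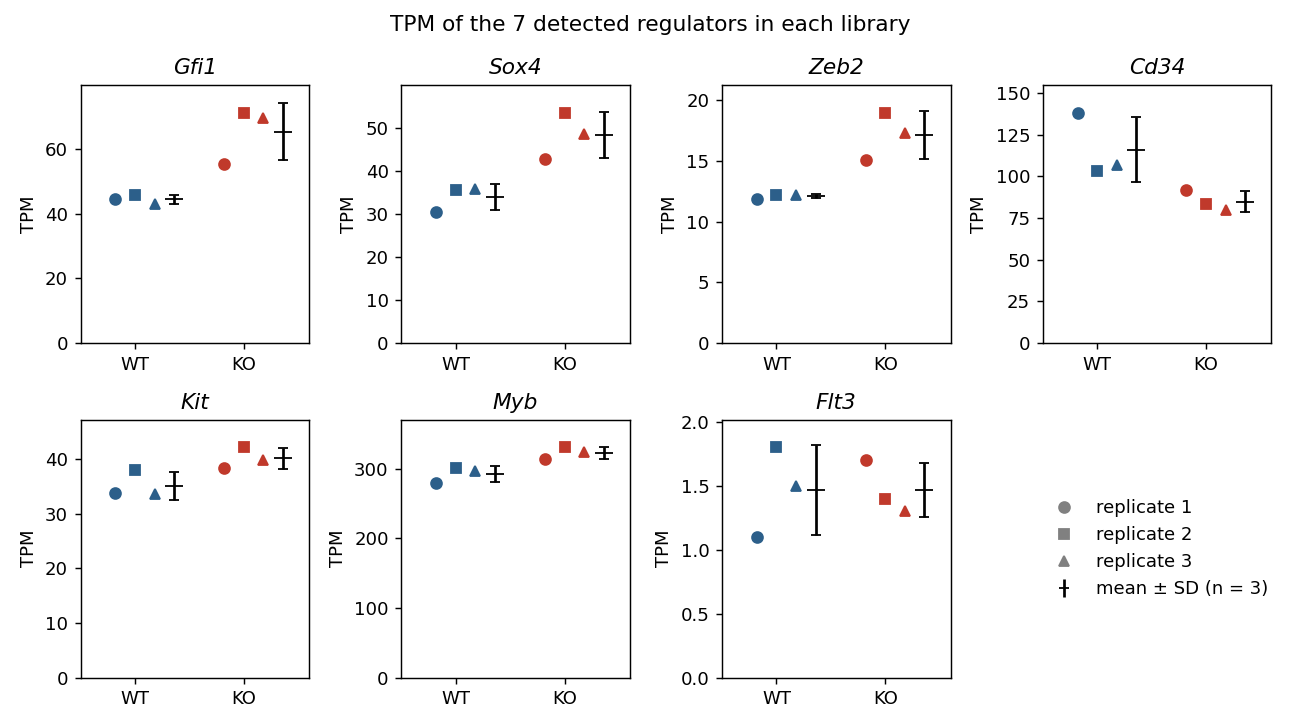
TPM (y axis, from 0) of the 7 detected regulators in the WT and KO libraries, 1 marker shape per replicate number, with mean ± SD of 3 libraries at the right of each group. For Gfi1, Sox4, Zeb2, Kit and Myb every KO library lies above every WT library, for Cd34 every KO library lies below, and the Flt3 values overlap.

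Gfi1 had the largest fold change of the members on the log2(TPM + 1) scale. It was at 55.4, 71.4 and 69.7 TPM in KO replicates 1, 2 and 3 and at 44.5, 45.9 and 43.1 TPM in WT replicates 1, 2 and 3. The WT values were close together, and KO replicate 1 lay between them and the other KO libraries. The mean rose from 44.5 ± 1.40 to 65.5 ± 8.79 TPM (SD, n = 3), a ratio of 1.47. On the log2(TPM + 1) scale this was 0.54 (SE 0.10, 95% interval 0.29 to 0.79, limma adjusted p = 0.023). A larger rise was seen for 1147 of the 1745 genes called higher, so the size of the Gfi1 rise was not unusual among them. The gene lies on mm10 chromosome 5, from 107716655 to 107725805, with 2 RefSeq transcripts, and no other RefSeq gene overlaps it.

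Sox4 was at 42.7, 53.5 and 48.6 TPM in KO replicates 1, 2 and 3 and at 30.5, 35.6 and 35.7 TPM in WT. Replicate 1 was the lowest library in both groups. The mean rose from 33.9 ± 2.97 to 48.3 ± 5.41 TPM (SD, n = 3), a ratio of 1.42 and a log2 fold change of 0.49 (SE 0.10, 95% interval 0.25 to 0.74, limma adjusted p = 0.028). Sox4 is a compact gene of chromosome 13, from 28948919 to 28953699. RefSeq places a predicted gene, Gm46405, over it, which is not used here.

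Zeb2 was at 15.1, 19.0 and 17.3 TPM in KO replicates 1, 2 and 3 and at 11.9, 12.2 and 12.2 TPM in WT. Its WT values spread by only 1.43% of their mean (coefficient of variation), the narrowest spread of the 7 in either group. The mean rose from 12.1 ± 0.173 to 17.1 ± 1.96 TPM (SD, n = 3), a ratio of 1.42 and a log2 fold change of 0.46 (SE 0.09, 95% interval 0.25 to 0.68, limma adjusted p = 0.023). The gene lies on chromosome 2, from 44983512 to 45117442, and its value is uncertain because an antisense gene, Zeb2os, shares 653 exonic bases with it in GENCODE M21. Zeb2os has 1990 exonic bases there and Zeb2 19942, so the shared bases are a larger part of Zeb2os than of Zeb2. Zeb2os rose beside it, from 19.2 ± 0.723 to 27.0 ± 2.86 TPM (limma adjusted p = 0.022), and the ratio of Zeb2os to Zeb2 stayed between 1.51 and 1.65 in the 6 libraries. The sources used here do not give the strand setting of the counting, so reads of the Zeb2os overlap cannot be assigned to either gene. Another gene, Mir5129, lies on the same strand as Zeb2 and shares 5 exonic bases with it. Mir5129 was called higher too, at 219 ± 24.7 TPM in KO against 167 ± 6.76 TPM in WT (SD, n = 3, limma adjusted p = 0.035). It has only 78 exonic bases, and its ratio to Zeb2 was between 12.6 and 14.7 in the 6 libraries. Whether its reads came from Zeb2 transcripts was not tested.

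Whether these 3 genes were called varied with the library left out. Without KO replicate 2 the limma adjusted p was 0.0947 for Gfi1, 0.106 for Sox4 and 0.0826 for Zeb2, and without KO replicate 3 it was 0.111, 0.124 and 0.111. Without WT replicate 2 it was 0.0743, 0.0784 and 0.0809, and without WT replicate 3 it was 0.0862, 0.0828 and 0.0849. All 3 were called when KO replicate 1, WT replicate 1 or both were left out. The log2 fold changes kept their sign throughout, between 0.47 and 0.65 for Gfi1, 0.42 and 0.58 for Sox4 and 0.37 and 0.55 for Zeb2 over 16 alternatives. The count over all genes fell with the same libraries, to 109, 0, 25 and 15 of 13575, against 2575 (19%) with all 6; at an unadjusted p under 0.05 it was 3381 without KO replicate 3 in limma.

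**Figure D2:**
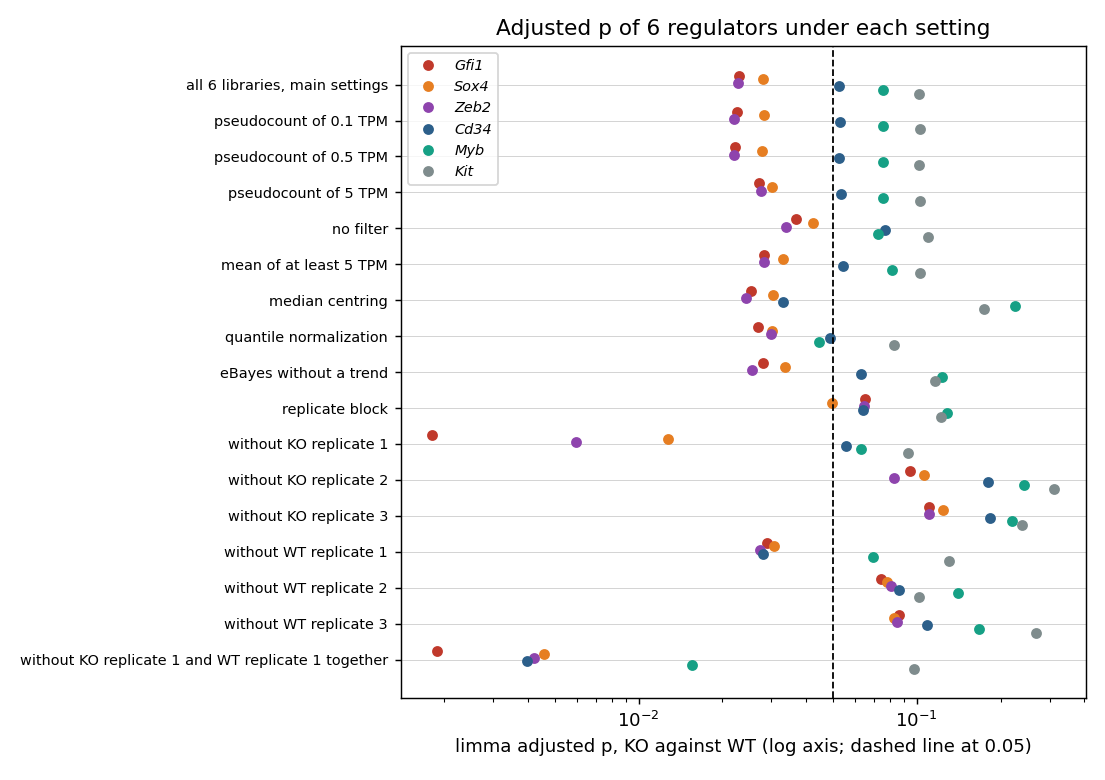
Limma adjusted p (x axis, log scale) of 6 regulators under the main settings and 16 alternatives (y axis), with a dashed line at 0.05. Gfi1, Sox4 and Zeb2 lie left of the line except without KO replicate 2 or 3, without WT replicate 2 or 3 and, for Gfi1 and Zeb2, with the replicate block. Kit lies right of it in every setting.

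Cd34 was the 1 member with lower KO values. It was at 91.5, 83.2 and 79.8 TPM in KO replicates 1, 2 and 3 and at 138.2, 102.9 and 106.9 TPM in WT. WT replicate 1 was 1.32 times the mean of WT replicates 2 and 3, and the groups did not overlap with or without it. The means were 84.8 ± 6.02 TPM in KO against 116 ± 19.3 TPM in WT (SD, n = 3), so the KO mean was 73.1% of the WT mean. The log2 fold change of -0.44 (SE 0.12, 95% interval -0.73 to -0.14) missed the threshold with a limma adjusted p = 0.053. Without WT replicate 1 the difference was smaller and the spread narrower, and Cd34 was called lower (log2 fold change -0.31, adjusted p = 0.028). It was also called lower when both replicates numbered 1 were left out (-0.36, adjusted p = 0.0040), with median centring (-0.49, 0.033) and with quantile normalization (-0.39, 0.049). Over all 16 alternatives the adjusted p lay between 0.0040 and 0.184. The gene lies on chromosome 1, from 194938821 to 194961292, and an antisense gene, Gm16897, shares 148 exonic bases with it in GENCODE M21. Cd34 has 7290 exonic bases there and Gm16897 2492. Gm16897 was at 21.5 ± 1.40 TPM in KO against 29.3 ± 4.63 TPM in WT (limma adjusted p = 0.0502). Its ratio to Cd34 was between 0.250 and 0.257 in all 6 libraries, WT replicate 1 with its high Cd34 value among them. As the strand setting is not given, reads of the overlap cannot be assigned to either gene here too. The ratio therefore does not show that the antisense gene changed by itself.

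The promoter windows of the 3 risen genes and of Cd34 are shown because these 4 differed most between the groups. Each runs from 250 bases before to 50 bases after the RefSeq start at the gene's own 5′ end (build GRCm38.p6, 5′ to 3′ on the gene's strand). Capitals mark AACNG, the core of the motif that MYB proteins bind, on either strand (CNGTT on the printed one).
Gfi1, chr5:107725756-107726055, minus strand: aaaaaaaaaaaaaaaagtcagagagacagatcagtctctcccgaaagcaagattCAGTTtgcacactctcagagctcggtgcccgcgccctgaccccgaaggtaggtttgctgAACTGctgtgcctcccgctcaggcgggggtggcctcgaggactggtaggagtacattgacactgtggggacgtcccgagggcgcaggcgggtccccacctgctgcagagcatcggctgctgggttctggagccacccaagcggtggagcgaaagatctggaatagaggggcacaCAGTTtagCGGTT
Sox4, chr13:28953650-28953949, minus strand: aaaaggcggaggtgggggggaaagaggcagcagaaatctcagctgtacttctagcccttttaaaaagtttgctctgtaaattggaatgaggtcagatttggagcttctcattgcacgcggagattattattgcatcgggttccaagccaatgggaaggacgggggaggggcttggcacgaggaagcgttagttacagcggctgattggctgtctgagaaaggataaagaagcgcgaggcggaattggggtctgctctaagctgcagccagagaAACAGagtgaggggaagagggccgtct
Zeb2, chr2:45117393-45117692, minus strand: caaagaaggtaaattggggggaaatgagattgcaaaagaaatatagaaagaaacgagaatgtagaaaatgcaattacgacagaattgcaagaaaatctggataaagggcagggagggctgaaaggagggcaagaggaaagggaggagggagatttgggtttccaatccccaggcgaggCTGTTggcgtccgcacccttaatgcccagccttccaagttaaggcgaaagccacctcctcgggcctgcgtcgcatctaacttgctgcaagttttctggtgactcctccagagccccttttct
Cd34, chr1:194938571-194938870, plus strand: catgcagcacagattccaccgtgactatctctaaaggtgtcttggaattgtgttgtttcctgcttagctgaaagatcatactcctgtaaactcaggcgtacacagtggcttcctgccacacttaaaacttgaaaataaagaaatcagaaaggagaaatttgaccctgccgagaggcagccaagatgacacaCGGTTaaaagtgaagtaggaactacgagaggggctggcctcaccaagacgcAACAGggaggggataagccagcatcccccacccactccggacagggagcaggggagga

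The Gfi1 window held 4 matches to AACNG, which start 196 and 137 bases before the gene's start and at bases 38 and 46 of the transcript. Cd34 held 2, beginning 59 and 8 bases before the start, and Zeb2 and Sox4 held 1 each. At least 1 match is found in 80.29% of all 32851 RefSeq promoter windows of this length, and in 7 of the 8 members with a window (all but Kit). AATC, the core bound by GFI1, was found in 7 of the 8 too, against 73.11% of all windows. Zeb2 and Sox4 each held 4 copies of it in the windows shown, Cd34 held 2 and Gfi1 held 1. CAGGTG, an E-box form that ZEB proteins bind, was found in 1 member, Gfi1, against 20.21% of all windows. It is one form of CANNTG, which 6 of the 8 and 72.31% of all windows held. GGAA, the ETS core, was in 8 of 8 (95.98% of all windows), and GATAA in 4 (25.41%). TGTGGT of RUNX factors (16.76% of all windows) and AACAAT of SOX factors (10.72%) were in none of the 8. All were searched on both strands, and a match describes letters and not binding.

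Kit and Myb were slightly above WT in every KO library, without passing the test. Kit, the SCF receptor, was at 38.4, 42.1 and 39.7 TPM in KO replicates 1, 2 and 3 and at 33.7, 38.0 and 33.5 TPM in WT. The gap between the lowest KO and the highest WT library was small, 38.4 against 38.0 TPM. The means were 40.1 ± 1.88 and 35.1 ± 2.54 TPM (SD, n = 3), with a log2 fold change of 0.19 (SE 0.07, 95% interval 0.02 to 0.36, limma adjusted p = 0.102). It was not called under any of the 16 alternatives (adjusted p from 0.0828 to 0.312). Kitl, the gene of its ligand, was listed at 0 TPM in all 6 libraries, while SCF protein was supplied in the medium.

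Myb, the most abundant member, was at 313.1, 330.4 and 323.4 TPM in KO replicates 1, 2 and 3 and at 278.8, 300.2 and 296.4 TPM in WT. Its mean was 322 ± 8.70 TPM in KO (SD, n = 3), which is 110% of the 292 ± 11.4 TPM in WT. Its log2 fold change of 0.14 (SE 0.05, 95% interval 0.03 to 0.26) had a limma adjusted p = 0.075. It was called higher with quantile normalization (0.19, adjusted p = 0.044) and without both replicates numbered 1 (0.13, adjusted p = 0.016). Over the alternatives the adjusted p lay between 0.016 and 0.242. The ratio of Myb to Kit was 8.05 ± 0.174 in KO and 8.34 ± 0.477 in WT (SD, n = 3), and the values overlapped, so these genes kept nearly the same proportion in both groups. Against this, Gfi1 relative to Kit was 1.63 ± 0.166 in KO and 1.27 ± 0.058 in WT, with no overlap.

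Flt3, the receptor of FLT3 ligand, was the weakest of the detected members. It was at 1.7, 1.4 and 1.3 TPM in KO replicates 1, 2 and 3 and at 1.1, 1.8 and 1.5 TPM in WT. Both means were 1.47 TPM, with SDs of 0.208 and 0.351 (n = 3). The log2 fold change was 0.0066 (95% interval -0.32 to 0.33, limma adjusted p = 0.98), so a change of up to about this interval on either side was not detectable with 3 libraries per group. Values this low are rounded to 1 decimal in the deposited lists, and the sign changed under 5 of the 15 alternatives that kept the gene, quantile normalization (-0.35) among them.

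**Figure D3:**
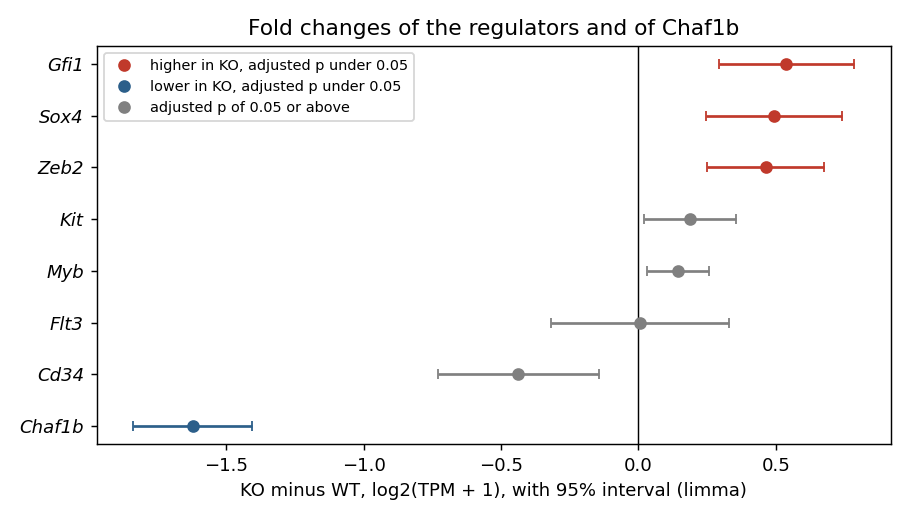
Difference between KO and WT on the log2(TPM + 1) scale (x axis) with the 95% interval from limma, for the 7 detected regulators and Chaf1b (y axis). Gfi1, Sox4 and Zeb2 (red) lie between 0.46 and 0.54, Chaf1b (blue) lies at -1.62, and the intervals of Kit, Myb and Cd34 exclude 0 although their adjusted p was above 0.05.

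The order of levels in WT was Myb, Cd34, Gfi1, Kit, Sox4, Zeb2 and Flt3, from 292 down to 1.47 TPM. The neighbours Kit and Sox4 overlapped there, with means of 35.1 and 33.9 TPM. In KO the order was the same except that Sox4 (48.3 TPM) stood above Kit (40.1 TPM), and the lowest Sox4 library (42.7 TPM) was above the highest Kit library (42.1 TPM). Cd34 and Gfi1 drew closer: the ratio of Gfi1 to Cd34 in TPM was 0.605, 0.858 and 0.873 in KO replicates 1, 2 and 3 and 0.322, 0.446 and 0.403 in WT. The mean of that ratio went from 0.390 ± 0.063 in WT to 0.779 ± 0.151 in KO (SD, n = 3), with no overlap. This separation follows from those of the genes, as Gfi1 was above and Cd34 below WT in every KO library, and is no further result.

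KO replicate 1 took an intermediate place in 6 members. Its distance from the mean of WT replicates 2 and 3, as a percentage of the distance of the mean of KO replicates 2 and 3, was 41.8% for Gfi1, 45.8% for Sox4, 48.7% for Zeb2, 51.5% for Kit, 51.7% for Myb and 57.3% for Cd34. This measure was defined after the values were seen. Over the 2575 called genes its median was 54.9% (quartiles 44.7% and 66.7%) and 5 of the 6 members, all but Gfi1, lay between these quartiles. Kit, Myb and Cd34 were not themselves called. Chaf1b itself was at 17.7 TPM in that library against 14.4 and 14.2 TPM in the other KO libraries, a value of 90.4% on the same measure.

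The partners of each member were compared through gene lists. Of 190 distinct listed genes 140 were tested, and 20 were called higher (14.3%, against 12.9% of all tested genes) and 8 lower (5.71%, against 6.11%), which is near the rate over all genes. The count of each list below stands against the same 12.9% and 6.11%. Without KO replicate 2 or 3, or WT replicate 2 or 3, the counts called in each direction were 0 in every list, except that 1 gene linked to Gfi1 was higher without KO replicate 2. Among 28 tested genes of Kit and Flt3 signalling 1 was higher and 0 lower in limma (8 and 0 at an unadjusted p under 0.05), with a median log2 fold change of 0.10. The count called higher was 3 without KO replicate 1 or with quantile normalization, 9 without WT replicate 1 and 14 without both replicates numbered 1. The 1 was Socs1, a feedback inhibitor of cytokine signalling, which rose from 21.1 ± 1.92 to 28.6 ± 0.702 TPM (SD, n = 3; adjusted p of 0.020 in limma).

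Gfi1b, the paralogue of Gfi1 that acts in erythroid cells and megakaryocytes, rose from near 0. It was at 4.4, 17.4 and 14.6 TPM in KO replicates 1, 2 and 3, at 0.8 TPM in WT replicate 1, and was listed at 0 in WT replicates 2 and 3. Its log2 fold change was 3.25 with a pseudocount of 1 TPM (SE 0.50, limma adjusted p = 0.015), and it ranged from 1.61 to 5.66 over the alternatives, mainly with the pseudocount. Of 7 tested erythroid and megakaryocyte markers 4 were called higher (Pf4, Klf1, Gata1 and Gp1bb) and 0 lower, against 12.9% and 6.11% of all tested genes. The summed level of all 10 listed, none at 0 throughout, was 40.7 to 74.5 TPM in KO and 16.7 to 29.1 TPM in WT. Their part in the Gfi1b result was not tested.

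GFI1 proteins repress through the demethylase KDM1A, CoREST and histone deacetylases. In that list, Gfi1b included, 3 of 14 tested genes were higher and 0 lower in limma (3 and 1 at an unadjusted p under 0.05), with a median log2 fold change of -0.02. Besides Gfi1b these were Rcor2, a CoREST paralogue, from 1.70 ± 0.50 to 4.13 ± 0.493 TPM (limma adjusted p = 0.017), and Ajuba, an adaptor protein, from 2.77 ± 0.379 to 4.83 ± 0.493 TPM (0.018). Kdm1a was at 28.6 and 30.4 TPM in KO and WT (0.38), and Hdac1 at 422 and 427 TPM (0.77). The abundant core of the complex thus had no called member, while the called ones were below 20 TPM in every library.

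Genes linked to Gfi1, mostly as candidates for its repression and not all of them established targets, went both ways. Of 20 tested 7 were higher and 2 lower, against 12.9% and 6.11% of all tested genes, with a median log2 fold change of 0.08. With quantile normalization 4 were lower. Gfi1b was among the 7 higher genes and was counted in the co-repressor list too. The higher ones included Elane, the neutrophil elastase gene (log2 fold change 1.22, limma adjusted p = 0.013), S100a8 and S100a9, which encode calprotectin (3.17 and 3.51), Mcpt8, a basophil protease (2.03), and Cdkn1b, a cell cycle inhibitor (0.60, 0.014). The lower ones were Irf8, a monocyte and dendritic factor, at 19.2 ± 6.96 TPM in KO against 41.3 ± 4.67 TPM in WT (limma adjusted p = 0.028), and Hoxa9, at 174 ± 11.2 and 213 ± 8.47 TPM (0.029). Of 7 tested neutrophil markers Camp, Lcn2 and Cd177 were called higher, against 12.9% of all tested genes, and Ly6g, Cxcr2, Mmp9 and Ngp were not called. The summed level of all 10 listed was 353.6 to 722.8 TPM in KO and 69.6 to 417.9 TPM in WT. WT replicate 1 made the upper WT value, with 62.0 TPM of Ly6g against 1.9 and 3.0 TPM in WT replicates 2 and 3. Most of its 417.9 TPM came from other listed markers. Gfi1 in that library was 1.00 times its mean in WT replicates 2 and 3. The part of these markers in the Gfi1 result was not tested.

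For Myb, the paralogues Mybl1 and Mybl2 were not called (limma adjusted p = 0.33 and 0.30), at means of 1.30 and 36.3 TPM in KO and 1.03 and 34.1 TPM in WT. Of 20 tested paralogues, cofactors and targets 1 was higher and 3 lower, with a median log2 fold change of -0.05. Without WT replicate 1 these counts were 2 and 8, and without both replicates numbered 1 they were 2 and 10. All tested genes called in either direction numbered 4850 and 7569 in these 2 settings, against 2575 under the main settings. The lower ones were Myc, from 107 ± 2.36 to 77.2 ± 9.76 TPM (SD, n = 3; adjusted p of 0.024 in limma), Bcl2, a survival gene, from 12.0 ± 0.777 to 8.60 ± 1.32 TPM (0.040), and Slc1a5, a glutamine transporter, from 162 ± 4.93 to 139 ± 6.95 TPM (0.038). The higher one was Kmt2a, from 28.6 ± 5.74 to 63.4 ± 9.39 TPM (0.015). Kmt2a is the mouse gene of MLL, and whether reads of the fusion were counted with it was not tested.

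Zeb1, the paralogue of Zeb2, was listed at 0 TPM in all libraries. Of 15 tested Zeb, Snai and CtBP partners 2 were higher and 0 lower in limma (5 and 1 at an unadjusted p under 0.05), with a median log2 fold change of 0.13. These were Chd4, a remodeller of the NuRD complex, from 21.5 ± 0.70 to 25.2 ± 0.907 TPM (limma adjusted p = 0.043), and Cdh1, the E-cadherin gene that ZEB proteins are known to repress, from 0.333 ± 0.231 to 2.13 ± 0.896 TPM (0.028). With quantile normalization 0 genes of this list were called higher in limma and 2 lower, and without WT replicate 1 the counts were 4 and 1. Of 10 other Sox genes 7 were at 0 throughout, Sox11 among them. Sox12, the other close relative of Sox4, was at or below 0.3 TPM, and only Sox13 was tested, with 5.20 ± 0.872 TPM in KO against 3.43 ± 0.153 TPM in WT (0.041). Sox13 was not called with quantile normalization (adjusted p of 0.120 in limma) or without the filter (0.056).

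**Figure D4:**
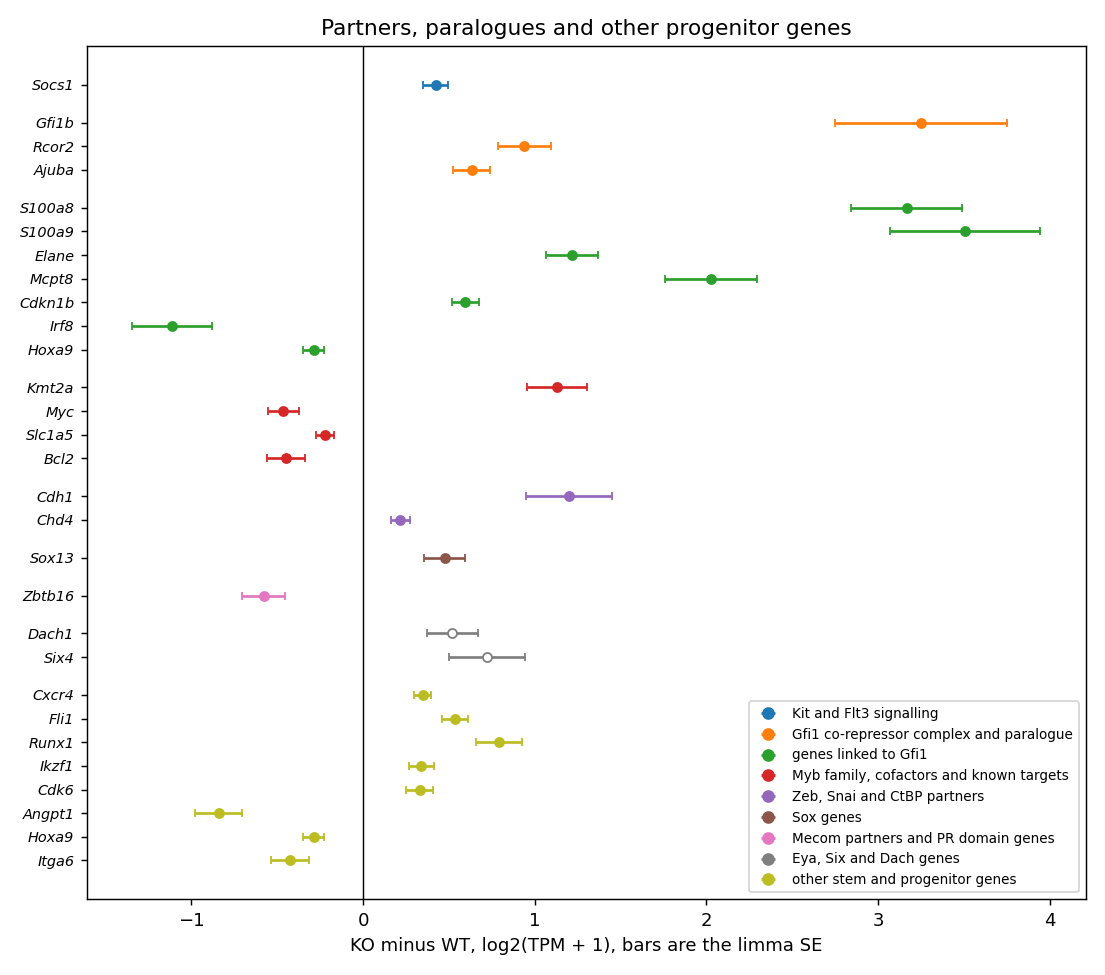
Difference between KO and WT on the log2(TPM + 1) scale (x axis, bars are the limma SE) for the named genes of 9 lists (y axis, coloured by list); open circles did not pass the test. Gfi1b, S100a8 and S100a9 lie above 3, Mcpt8 lies at 2.03, and the other named genes lie within 1.25 of 0.

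With Mecom at 0, its paralogue Prdm16 was at 1.20 ± 0.173 TPM in KO against 1.43 ± 0.153 TPM in WT (SD, n = 3; adjusted p of 0.33 in limma). Of 14 tested Mecom partners and PR domain genes 0 were higher and 1 was lower in limma (0 and 3 at an unadjusted p under 0.05), with a median log2 fold change of -0.06. With quantile normalization 5 were lower. The lower one was Zbtb16, a zinc finger gene of stem cells, from 4.10 ± 0.721 to 2.40 ± 0.30 TPM (0.031). With Eya1 at 0, Eya3 was the 1 Eya gene above 0.1 TPM, at 14.9 ± 0.351 TPM in KO against 14.8 ± 0.964 TPM in WT (0.95). KO and WT means of Dach1, a transcription cofactor gene, were 46.3 ± 7.02 and 32.0 ± 5.19 TPM (adjusted p of 0.056 in limma). Those of Six4, a homeobox gene, were 16.2 ± 2.70 and 9.63 ± 2.76 TPM (0.066). Neither gene passed the test with all 6 libraries, and both did without WT replicate 1 (Dach1 0.024 and Six4 0.048). Among the paralogues of the receptors, Csf1r and Pdgfra stayed below the filter and Pdgfrb was not called (limma adjusted p = 0.16).

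Other stem and progenitor genes moved in both directions as well. Of 33 tested 6 were higher and 3 lower, with a median log2 fold change of -0.02. Without WT replicate 1 these counts were 12 and 4, and with quantile normalization 5 and 5. All tested genes called in either direction numbered 4850 and 3068 in these 2 settings, against 2575 under the main settings. The higher ones included the transcription factor genes Runx1, from 9.80 ± 1.06 to 17.8 ± 3.02 TPM (SD, n = 3; adjusted p of 0.019 in limma), Fli1, from 27.5 ± 0.624 to 40.4 ± 3.70 TPM (0.014), and Ikzf1, from 6.97 ± 0.153 to 9.10 ± 0.755 TPM (0.031). The kinase gene Cdk6 rose from 282 ± 27.6 to 354 ± 13.2 TPM (0.038) and the chemokine receptor gene Cxcr4 from 105 ± 4.47 to 133 ± 2.62 TPM (0.014). Angpt1, a ligand of the receptor Tek, fell from 12.1 ± 2.12 to 6.30 ± 0.781 TPM (0.017), and Itga6, an integrin of stem cells, from 20.9 ± 3.34 to 15.2 ± 0.702 TPM (0.047), beside Hoxa9. Of the 26 called genes named from the lists, 25 lost their call without KO replicate 2, and all 26 without KO replicate 3, WT replicate 2 or WT replicate 3. None lost it without WT replicate 1, and 1 did without KO replicate 1. With the replicate number as a block 20 lost it, and 4 each did with quantile normalization and without the filter.

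Cells of other types that carry these regulators were looked for through their markers. The counts below stand against 12.9% of all tested genes called higher and 6.11% called lower. Mast cells carry Kit: Fcer1a, Mcpt4 and Tpsb2 were at 0 in all libraries, although 2 of 4 tested mast cell and basophil genes were higher (Mcpt8 and Ms4a2) and the sum over 11 was 109.2 to 196.7 TPM in KO and 65.9 to 84.3 TPM in WT. Dendritic cells carry Flt3 and Zeb2: Siglech, Ccr9, Zbtb46 and Cd209a were at 0, and the 1 tested of 10 markers, Clec10a, was higher, with sums of 14.1 to 21.0 and 5.7 to 7.2 TPM. Endothelial cells carry Cd34: Kdr, Emcn and Tek were at 0, 0 of 2 tested markers were called in limma (0 at an unadjusted p under 0.05), and the sums were 84.9 to 91.9 and 76.5 to 100.1 TPM. Pecam1, at 60.8 to 79.1 TPM, made up most of these sums. Below the filter, Cdh5 was at 0.5, 1.5 and 1.3 TPM in KO replicates 1, 2 and 3 and at 0 in WT. Vwf was at 0.6, 1.4 and 1.2 TPM in KO and at 0.1, 0 and 0 TPM in WT. Early lymphoid cells carry Flt3 and Myb: Dntt, Rag1 and Ebf1 were among the markers at 0, 1 of 2 tested was higher (Cd79a), and the sums were 8.5 to 9.0 and 7.3 to 7.7 TPM. Of monocyte and macrophage markers 3 of 6 tested were higher, with sums of 1308.6 to 1614.3 and 1087 to 1195.7 TPM and Ms4a7 at 0. Of stromal markers 2 of 3 tested were higher, with sums of 39.9 to 100.1 and 14.4 to 21.8 TPM and Lepr, Dcn and Lum at 0. Of 8 markers of the labelled leukaemic cells 2 were higher (Mpo and Cebpa) and 1 lower (Hoxa9), with sums of 1765.6 to 3160.1 and 782 to 902 TPM and none at 0. Mpo alone gave 1017.6 to 2311.4 TPM of the KO sums and 19.4 to 127.6 TPM of the WT sums. Values of Ptprc, Itgam, Spi1 and Cd33 overlapped between the groups. The part of these markers in the members' results was not tested.

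The genes whose profile over the 6 libraries was most like that of a member were found by the root mean square difference of log2(TPM + 1) after centring each gene on its own mean. For Gfi1 these were Cyb5d2 (0.0259), Sumo3 (0.0382), a small ubiquitin-like modifier gene, and Mmp28 (0.0444). For Zeb2 they were Prdx4 (0.0178), a peroxiredoxin gene, Nfe2l2 (0.0181), which encodes NRF2, and Ankrd44 (0.0202). For Sox4 they were Cers6 (0.0342), a ceramide synthase gene, Rps6ka3 (0.0355) and Frat2 (0.0370). For Cd34 they were Itga6 (0.0395), the integrin gene named above, Mks1 (0.0400) and Fam195b (0.0424). The likeness reflects the same 6 libraries and the same group difference. The remaining members varied too little or were at 0.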

How the data were processed

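Expression was measured in 6 RNA libraries, 3 KO and 3 WT, grouped by the titles in the labels. The submitters' processing notes name mm10, featureCounts 1.6.2, STAR 2.6.1e, cutadapt 1.9.1 and Trim Galore 0.4.2. The sources used here do not give the annotation, the strand setting or the step to TPM. The authors deposited TPM per gene symbol, rounded to 1 decimal, and no counts. From these, genes reaching 1 TPM in 3 or more libraries were kept (13575; 22294 left out). The genotypes were then compared in R 4.3.3 by limma 3.58.1, fitted to log2(TPM + 1) without other terms, with a mean-variance trend and Benjamini-Hochberg adjustment. Fold changes on this scale understate changes of weakly expressed genes. Leave-one-out fits kept the same genes. Gene positions and promoters came from RefSeq (GRCm38.p6, the assembly of mm10), exon overlaps from GENCODE M21. The fit was tested on simulated data.

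The members and lists were chosen with earlier results of these data known. Named genes were the members, their direct paralogues, up to 5 called genes per list and direction by adjusted p (or the 2 with the smallest p), and the 3 nearest profiles (mean of at least 5 TPM) of members with an SD of at least 0.2. Genes overlapping members, cell type markers, Hdac1, Kdm1a and Kitl were named after their values were seen. Alternatives were other pseudocounts, filters and scalings, no trend, a replicate block and leaving out libraries; leaving out both replicates numbered 1 was added after seeing the data.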

Additional observations from a re-analysis of the deposited data

How the results depend on the processing

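Gfi1, Sox4 and Zeb2 kept their direction under all 16 alternatives. The number of members called higher was 3, and it ranged from 0 to 3 when 1 library was left out. It was 4 with quantile normalization and 4 without both replicates numbered 1. The number called lower was 0 (limma; 1 at an unadjusted p under 0.05); it was 1, Cd34, with median centring, with quantile normalization and without both replicates numbered 1, and ranged from 0 to 1 when 1 library was left out. The count over all tested genes was 2575, against 1578 with a mean of at least 5 TPM, 7569 without both replicates numbered 1 and 0 to 4850 when 1 library was left out. With the replicate number as a block, members called higher numbered 1 (Sox4) and all genes 333. Deviations of same-numbered KO and WT libraries correlated at -0.199, -0.145 and -0.164 across genes. Those of differently numbered libraries correlated at -0.206 to 0.232. Deviations within 3 libraries sum to 0 and the replicates numbered 1 stood apart, so these values cannot show whether the numbers pair the samples. The cause of the changes in the counts was not tested. The median log2 fold change of all tested genes was 0.0065 as deposited, -0.05 with median centring and -0.07 with quantile normalization. TPM keeps no depth, so what depth limits cannot be given; the rounding to 1 decimal limits Flt3 and the genes near 0.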
